A study of Mus musculus with 19 samples.

Results

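Pericytes and smooth muscle cells wrap the small vessels of a dorsal root ganglion, the cluster of sensory neuron cell bodies beside the spinal cord. The 9 genes described here are widely used to mark these mural cells: Acta2, Myh11, Tagln, Cnn1, Des, Rgs5, Pdgfrb, Cspg4 and Tpm1. They were taken by symbol from the 36682 genes of the deposited table, and all 9 were among the 22778 genes with enough counts to be tested. They were not picked by a threshold on their values.

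The study asked how removing macrophages alters ganglia and pain in mice with osteoarthritis of the knee. Every mouse was a male homozygous for the MaFIA transgene (macrophage Fas-Induced apoptosis), in which the Csf1r promoter drives a Fas-based death receptor that the dimerising drug AP20187 switches on, so the vehicle mice carry the transgene too. Osteoarthritis was induced by DMM surgery, which destabilises the medial meniscus, and 5 daily injections into the abdominal cavity were given at 8 weeks after it. Naive mice were matched in age and had no such operation. Lumbar L3 to L5 ganglia were pooled for each library, in DMM mice from the operated side, and the labels give no other batch. The groups were DMM with AP20187 (5 mice, numbers 58 to 62), DMM with vehicle (5 mice, numbers 32, 33, 34, 63 and 64), naive with AP20187 (4 mice, numbers 1, 3, 4 and 5) and naive with vehicle (5 mice, numbers 1 to 5). The labels number samples, each called a mouse here, and a number shared between groups does not mark the same one. Library totals ran from 60984830 to 74691396 counts. Neuronal markers were found in all 19 libraries, with Tubb3 between 255 and 2227 CPM (counts scaled to the library total).

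Mural cells fall along a range. Arterial smooth muscle is rich in actin, myosin and their partners and sets vessel width by contracting. Pericytes sit on capillaries, keep contact with endothelial cells, and depend on platelet-derived growth factor from the endothelium. Contractile genes are switched on by serum response factor with its partners myocardin and the myocardin-related factors, which act on a short element called the CArG box. Some contractile genes are also used elsewhere: desmin is an intermediate filament of skeletal muscle, and Tpm1 makes both muscle tropomyosin and forms found in most cells, neurons included.

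Acta2 is a textbook target of that element, and Tpm1 is the member whose difference passed the test in most comparisons. The 250 bases before the start of these genes, from RefSeq on build GRCm38.p6, are printed for that reason. Capitals mark CArG boxes that a search of the printed strand found with 1 substitution allowed within the central A/T run. The pattern reads the same on the other strand. Acta2 lies at chr19:34255374-34255623 on the minus strand, and Tpm1 at chr9:67049214-67049463 on the minus strand.
Acta2: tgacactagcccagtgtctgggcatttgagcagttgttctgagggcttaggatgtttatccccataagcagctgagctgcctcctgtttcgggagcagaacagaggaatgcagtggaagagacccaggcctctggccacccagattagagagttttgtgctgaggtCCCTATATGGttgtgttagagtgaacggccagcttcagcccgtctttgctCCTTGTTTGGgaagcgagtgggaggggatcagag
Tpm1: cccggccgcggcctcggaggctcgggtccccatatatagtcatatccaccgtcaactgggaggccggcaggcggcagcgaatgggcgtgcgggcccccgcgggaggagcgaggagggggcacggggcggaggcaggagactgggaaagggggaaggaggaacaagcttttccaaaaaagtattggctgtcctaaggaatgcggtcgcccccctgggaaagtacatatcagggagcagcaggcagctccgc
Acta2 held 2 such boxes, CCCTATATGG starting 84 bases before the start and CCTTGTTTGG starting 34 bases before it. Of 9 genes, 6 had an entry in the table (Acta2, Cnn1, Des, Tpm1, Rgs5 and Cspg4), and none of the 6 windows held an exact box, which 1.47% of 32851 promoters held. With the substitution allowed, 8.59% of promoters held a box, and Acta2 alone of the 6 did. A match is only a match of letters.

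Per length, Rgs5 and Tpm1 were the most abundant members. Over the 19 libraries the mean level was 51.1 ± 10.4 FPKM (fragments scaled for gene length and library total; SD, n = 19) for Rgs5, a brake on G-protein signalling found in pericytes, and 48.2 ± 23.5 for Tpm1. Next came Tagln, an actin-bundling protein, at 20.9 ± 14.2 FPKM and Acta2, smooth muscle actin, at 16.1 ± 14.5. Pdgfrb, the receptor for platelet-derived growth factor B, was at 5.47 ± 0.891 and Des at 5.45 ± 6.55. The lowest levels were 2.50 ± 2.45 FPKM for Myh11, smooth muscle myosin heavy chain, 1.41 ± 1.41 for Cnn1, the actin-binding protein calponin, and 1.07 ± 0.378 for Cspg4, the NG2 proteoglycan of pericytes. In this order only the step from Tpm1 to Tagln was larger than the larger SD of the neighbouring pair.

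**Figure D1:**
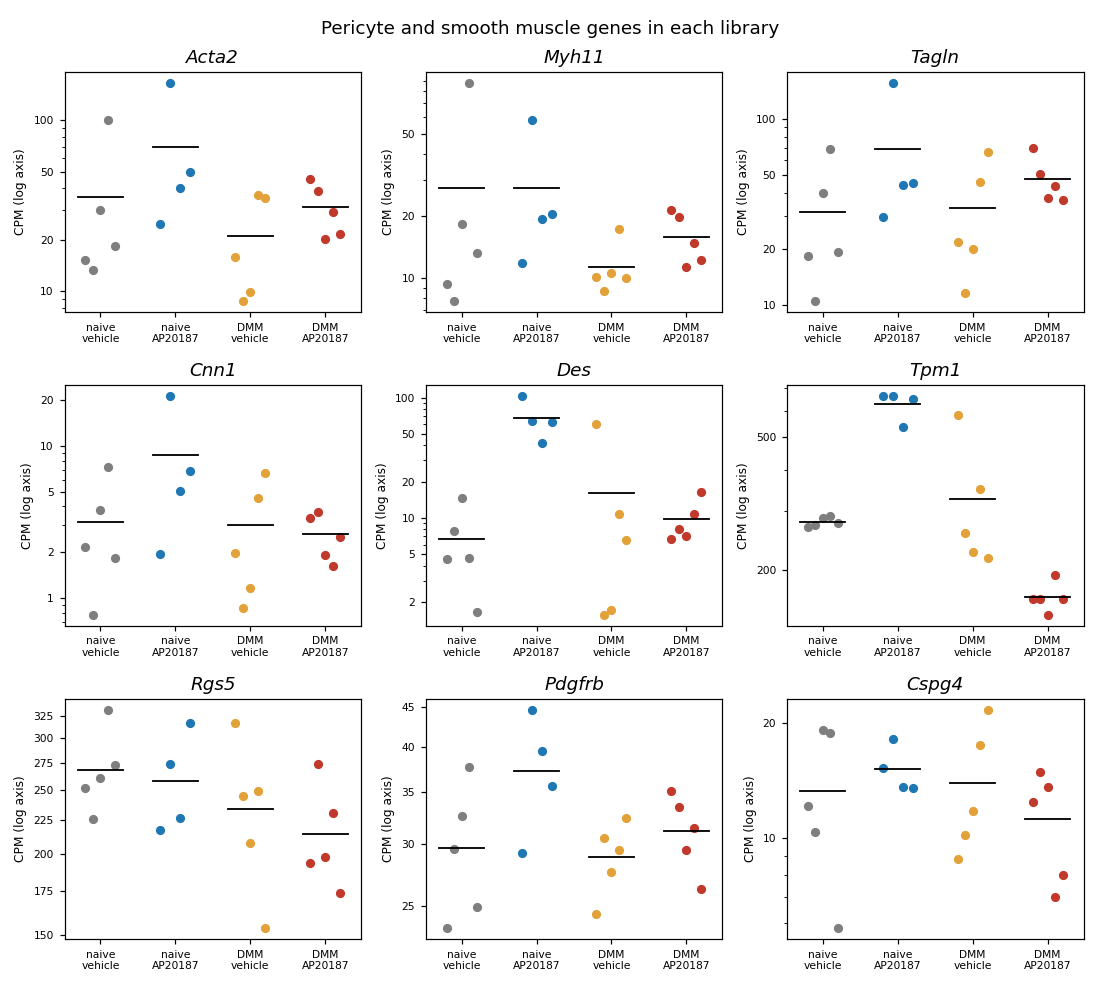
CPM of each of the 9 genes (log axis) in naive vehicle (n = 5), naive AP20187 (n = 4), DMM vehicle (n = 5) and DMM AP20187 (n = 5) mice. Each point is a library, ordered by mouse number, and the bar is the group mean. The Tpm1 points of DMM AP20187 lie below all other points, and the 4 naive AP20187 libraries are high for Des and Tpm1.

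The question of the main comparison was what AP20187 did in DMM mice. Of the 9 members, 1 passed the test (adjusted p under 0.05) and was lower, where 23.8% of all genes passed in either direction and 12.4% were lower. That member was Tpm1. Tpm1 was at 164, 164, 147, 193 and 164 CPM in DMM AP20187 mice 58 to 62, and at 581, 258, 227, 349.8 and 217 CPM in DMM vehicle mice 32, 33, 34, 63 and 64. The groups did not overlap, which was so for 4.18% of all genes in the lower direction, and the lowest vehicle library was mouse 64. Tpm1 fell by 0.97 on the log2 scale (SE 0.21), which is 1.96-fold, with an adjusted p of 0.00453 by edgeR's quasi-likelihood test over all genes. Mouse 32 was the highest vehicle library, and without it the Tpm1 difference was -0.65 with an adjusted p that still passed in all 10 fits that left out 1 mouse. In bulk tissue, fewer cells of a type and less RNA per cell cannot be told apart.

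No other member passed in DMM mice. Des was at 6.62, 8.03, 7.05, 10.7 and 16.4 CPM with AP20187, and at 60.2, 1.57, 1.71, 10.8 and 6.51 CPM with vehicle. Mouse 32 lay far above all others, and mice 33, 34 and 64 lay below every AP20187 mouse, so that the vehicle group enclosed the other. The Des difference of -0.72 log2 (SE 0.75, adjusted p = 0.531) became 0.93 without mouse 32.

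Acta2, Myh11, Tagln and Cnn1, the smooth muscle genes of the set, overlapped between treatments in DMM mice. Acta2 was at 45.4, 38.4, 20.2, 29.1 and 21.6 CPM with AP20187, and at 15.8, 8.74, 9.88, 36.3 and 34.9 CPM with vehicle. Within the vehicle group, mice 63 and 64 were at the level of the treated mice, and mice 32 to 34 were below all of them. The log2 differences were 0.55 (SE 0.59, adjusted p = 0.545) for Acta2, 0.48 (SE 0.56, 0.576) for Myh11, 0.52 (SE 0.53, 0.519) for Tagln and -0.21 (SE 0.64, 0.851) for Cnn1.

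The same division of the vehicle mice was seen for Tagln, in part for Cnn1 and not for Myh11. Tagln in vehicle mice 32 to 34 was at 21.9, 11.7 and 20.1 CPM, and in mice 63 and 64 at 45.7 and 66.0 CPM. Cnn1 was at 1.99, 0.866 and 1.17 CPM in the former and 4.53 and 6.65 CPM in the latter. Both genes were higher in mice 63 and 64 than in mice 32 to 34. Against mice 63 and 64 alone the differences were -0.17 log2 for Acta2 (adjusted p = 0.947) and -0.22 for Tagln (0.911), so their direction turned. Against mice 32 to 34 alone they were 1.43 for Acta2 (adjusted p = 0.111) and 1.41 for Tagln (0.0679), above the values with all 5 vehicle mice. Some cell type lists divided these mice too. A list of 10 fibroblast genes summed to 2212, 1335 and 1733 CPM in mice 32 to 34 and 4592 and 7334 CPM in mice 63 and 64. The skeletal muscle list described below did not divide them so. The labels do not say what sets these number ranges apart.

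Rgs5, Pdgfrb and Cspg4, the pericyte genes of the set, did not pass in DMM mice. Rgs5 was at 193, 274, 198, 231 and 174 CPM with AP20187 and 317, 245, 208, 249 and 154 CPM with vehicle. Pdgfrb was at 26.2 to 35.1 CPM with AP20187 and 24.4 to 32.4 CPM with vehicle. Cspg4 was at 7.02 to 14.9 and 8.82 to 21.7 CPM in the same order. All 3 genes overlapped between the groups. The 95% interval of the log2 difference was -0.53 to 0.26 for Rgs5 (adjusted p = 0.660), -0.21 to 0.43 for Pdgfrb (0.652) and -0.98 to 0.34 for Cspg4 (0.500).

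Without surgery, AP20187 was compared with vehicle in the same way. Of the 9 members, 2 passed, both higher, where 11.2% of all genes passed and 8.61% were higher. These were Des and Tpm1. Des was at 103, 63.7, 41.7 and 63.1 CPM in naive AP20187 mice 1, 3, 4 and 5, and at 4.58, 7.79, 14.7, 4.68 and 1.64 CPM in naive vehicle mice 1 to 5. The lowest AP20187 library was well above the highest vehicle library. Des was higher by 3.34 log2 (SE 0.84), or 10.2-fold, with an adjusted p of 0.0171 by edgeR. Without naive AP20187 mouse 1 it was 3.07 with an adjusted p of 0.0515, just outside the threshold, and over the 9 fits that left out 1 mouse the adjusted p ran from 0.0153 to 0.0515.

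Tpm1 was at 663, 662, 535 and 652 CPM in naive AP20187 mice and at 269, 273, 286, 290.0 and 277 CPM in naive vehicle mice. The vehicle libraries were close together and all AP20187 libraries were above them. No overlap in the higher direction, as for Des and Tpm1, was found for 9.39% of all genes. Tpm1 was higher by 1.17 log2 (SE 0.22), or 2.25-fold, with an adjusted p of 0.00348, and it passed in each of the 9 fits that left out 1 mouse.

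Acta2, Myh11, Tagln and Cnn1 did not pass in naive mice, and single libraries stood far apart. Acta2 was at 24.7, 165, 40.0 and 49.6 CPM with AP20187, and at 15.1, 13.2, 29.7, 100.5 and 18.4 CPM with vehicle. Myh11 was at 11.9, 58.1, 19.2 and 20.5 CPM with AP20187, and at 9.33, 7.74, 18.4, 88.1 and 13.2 CPM with vehicle. For both genes, AP20187 mouse 3 and vehicle mouse 4 stood above all other libraries of the study, and the groups overlapped. The differences were 0.98 log2 (SE 0.63, adjusted p = 0.302) for Acta2 and 0.01 (SE 0.59, 0.996) for Myh11. Single mice moved these values in both directions. Without AP20187 mouse 3 the difference was 0.13 for Acta2 and -0.65 for Myh11. Without vehicle mouse 4 it was 1.87 for Acta2, with an adjusted p of 0.0377, and 1.17 for Myh11, with one of 0.0665. Over the mice left out in turn, the adjusted p ran from 0.0377 to 0.930 for Acta2 and from 0.0665 to 0.926 for Myh11.

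Tagln and Cnn1 had the same highest libraries within each naive group. Tagln was at 29.8, 156, 43.9 and 45.3 CPM with AP20187 and at 18.4, 10.5, 39.9, 69.2 and 19.3 CPM with vehicle. Cnn1 was at 1.94, 21.2, 5.03 and 6.80 CPM with AP20187 and at 2.16, 0.777, 3.79, 7.26 and 1.84 CPM with vehicle. AP20187 mouse 3 was the highest library of the study for both. The differences were 1.13 log2 (SE 0.56, adjusted p = 0.190) for Tagln and 1.47 (SE 0.68, 0.162) for Cnn1, and neither passed. Without AP20187 mouse 3 they were 0.35 and 0.56, and without vehicle mouse 4 they were 1.64 (adjusted p = 0.0618) and 2.03 (0.0665).

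Rgs5 was at 217, 275, 226 and 316 CPM in naive AP20187 mice and 252, 226, 261, 332 and 273 CPM in naive vehicle mice. Pdgfrb was at 29.2, 44.6, 39.6 and 35.6 CPM with AP20187 and at 23.4, 29.6, 32.6, 37.6 and 24.9 CPM with vehicle. Cspg4 was at 13.6 to 18.2 CPM with AP20187 and 5.81 to 19.2 CPM with vehicle. The groups overlapped for all 3 genes. The log2 differences were -0.05 (SE 0.20, adjusted p = 0.873) for Rgs5, 0.33 (SE 0.16, 0.176) for Pdgfrb and 0.19 (SE 0.33, 0.722) for Cspg4.

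**Figure D2:**
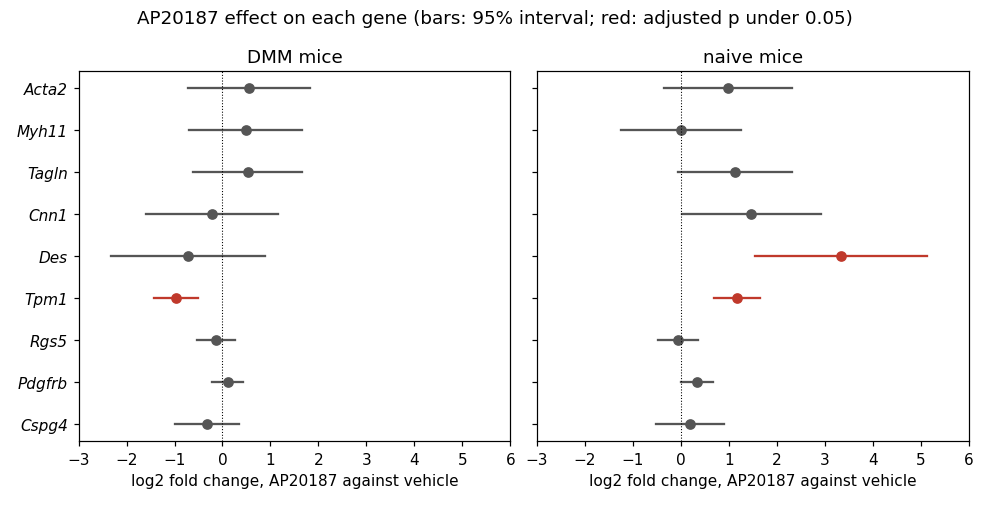
Log2 fold change of each gene, AP20187 against vehicle, in DMM mice (left) and naive mice (right), with the 95% interval from the fit on 19 libraries. Red marks an adjusted p under 0.05. Tpm1 is at -0.97 in DMM mice and 1.17 in naive mice, and Des is at 3.34 in naive mice.

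Over the 9 members the median log2 difference was -0.13 in DMM mice, where that of all tested genes was -0.10. In naive mice it was 0.98, the value of Acta2, where that of all genes was -0.07. Single mice moved the naive values both ways. Without naive AP20187 mouse 3 the middle value of the 9 was that of Pdgfrb, 0.23. Without naive vehicle mouse 4 the differences of Acta2, Myh11, Tagln and Cnn1 rose to 1.87, 1.17, 1.64 and 2.03. The DMM and naive comparisons share no library.

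Whether AP20187 acted differently after surgery was tested as the difference between its effects in DMM and in naive mice. Tpm1 passed, as 0.114% of all genes did, at -2.14 log2 (SE 0.31, adjusted p = 0.00425). The naive AP20187 libraries and DMM vehicle mouse 32 held the most skeletal muscle RNA, as described below. The part of muscle RNA in this difference was not tested. Des was at -4.07 (SE 1.12) and did not pass (adjusted p = 0.233). Without DMM vehicle mouse 32 it was -2.43, and with limma on log2(FPKM + 1) it was -2.58. By DESeq2 it passed, with an adjusted p of 0.0144, and over all settings that value ran from 0.0144 to 0.460.

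Between the AP20187 groups, DMM was set against naive. This comparison uses libraries that also enter the comparisons above. Of 9 members, 1 passed, Tpm1, where 0.702% of all genes did and 0.439% were lower. Tpm1 was lower in DMM by 1.92 log2, at -1.92 (SE 0.23, adjusted p = 0.000247), with 147 to 193 CPM against 535 to 663 CPM. Des did not overlap either, at 6.62 to 16.4 CPM against 41.7 to 103 CPM, and such a gap in the lower direction was found for 2.44% of all genes. Its difference of -2.79 (SE 0.82) had an adjusted p of 0.109, and passed with DESeq2 (0.0101), with limma on log2(FPKM + 1) (0.0403) and with only these groups in the fit (0.00254). Cnn1 was at -1.74 (SE 0.68, adjusted p = 0.214), and at -0.82 without naive AP20187 mouse 3.

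Between the vehicle groups, DMM against naive, no member passed by edgeR or by DESeq2, and 0.00% of all genes did. At an unadjusted p under 0.05 there was 1 member, where 1.66% of all genes lay. This was Myh11 at -1.27 log2 (SE 0.56, adjusted p = 1). It became -0.10 without naive vehicle mouse 4. Des was at 1.28 (SE 0.76) and at -0.40 without DMM vehicle mouse 32. Tpm1 was at 0.23 (SE 0.21), with DMM vehicle mice 32 and 63 above every naive vehicle mouse and mice 33, 34 and 64 below them all.

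Because Des and Tpm1 are also muscle genes, a list of 12 skeletal muscle genes was read in the same libraries. Its summed level was 2715, 2313, 1762 and 2324 CPM in naive AP20187 mice 1, 3, 4 and 5, and 116, 210.4, 453, 74.7 and 17.4 CPM in naive vehicle mice. DMM vehicle mouse 32 was at 1976 CPM, and the other DMM vehicle mice at 29.4, 21.2, 260.3 and 93.8 CPM. DMM AP20187 mice were at 20.2, 41.7, 32.2, 76.8 and 163 CPM. The 5 libraries with the most muscle RNA were thus the 4 naive AP20187 libraries and DMM vehicle mouse 32, and they were also the 5 highest for Des and for Tpm1. Of the 11 tested genes, 6 were higher with AP20187 in naive mice, where 8.61% of all genes were, and 3 were lower in DMM mice, where 12.4% were.

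The defining muscle genes ranged as widely. Acta1, skeletal muscle actin, was at 443, 308, 249.9 and 342 CPM in naive AP20187 mice, at 411 CPM in DMM vehicle mouse 32 and at 2.61 to 99.5 CPM in naive vehicle mice. Myh4, a fast myosin heavy chain, was at 639 to 847 CPM in naive AP20187 mice and 2.74 to 120.4 CPM in naive vehicle mice. Myog, a factor of developing muscle, was at 0.398 CPM or less in every library. What part muscle RNA has in the Des and Tpm1 values was not tested, and within naive mice its level and the treatment cannot be told apart.

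Muscle RNA was low in the other DMM libraries. Vehicle mice 33, 34, 63 and 64, at 29.4, 21.2, 260.3 and 93.8 CPM of the muscle list, had 258, 227, 349.8 and 217 CPM of Tpm1 and 1.57, 1.71, 10.8 and 6.51 CPM of Des. AP20187 mice, with 20.2 to 163 CPM of the list, had 147 to 193 CPM of Tpm1 and 6.62 to 16.4 CPM of Des. Neuronal RNA also differed: a list of 8 neuronal genes summed to 1638 to 6731 CPM with AP20187 and 4937 to 13702 CPM with vehicle in DMM mice, and 6 of the 8 were lower, where 12.4% of all genes were. Its part in the Tpm1 value was not tested.

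**Figure D3:**
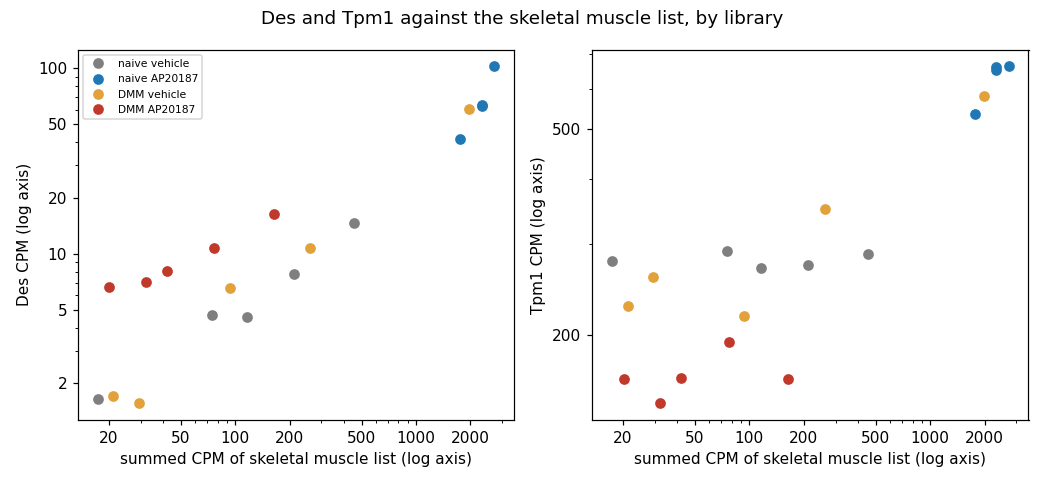
Des (left) and Tpm1 (right) in CPM against the summed CPM of the skeletal muscle list, 1 point per library, colours by group, both axes log. The 4 naive AP20187 libraries and DMM vehicle mouse 32 are at the upper right of both panels, and at low muscle levels the DMM AP20187 libraries lie lowest for Tpm1 but not for Des.

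Contractile genes were read beside the endothelium that the vessels share. A list of 12 endothelial genes summed to 692, 559, 375, 706 and 502 CPM in DMM AP20187 mice and 238, 176, 257, 275 and 305 CPM in DMM vehicle mice. In naive mice it was at 451, 1191, 645 and 776 CPM with AP20187 and at 195, 156, 269.8, 679 and 166 CPM with vehicle. Naive AP20187 mouse 3 and naive vehicle mouse 4, the highest for Acta2 and Myh11, were the highest of their groups for the endothelial list. Of the 12 genes, 5 were higher with AP20187 in DMM mice, where 11.3% of all genes were, and 4 in naive mice, where 8.61% were. Emcn and Vwf were among them in both. Cdh5, an endothelial cadherin of the list, did not pass by edgeR in DMM mice (0.76 log2, adjusted p = 0.141) or in naive mice (1.22, adjusted p = 0.0503). The endothelial sum did not overlap between treatments in DMM mice. Acta2, Myh11, Tagln and Cnn1 each overlapped, but single genes and a sum of 12 genes are not like measures. The part of vessel content in the contractile values was not tested.

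**Figure D4:**
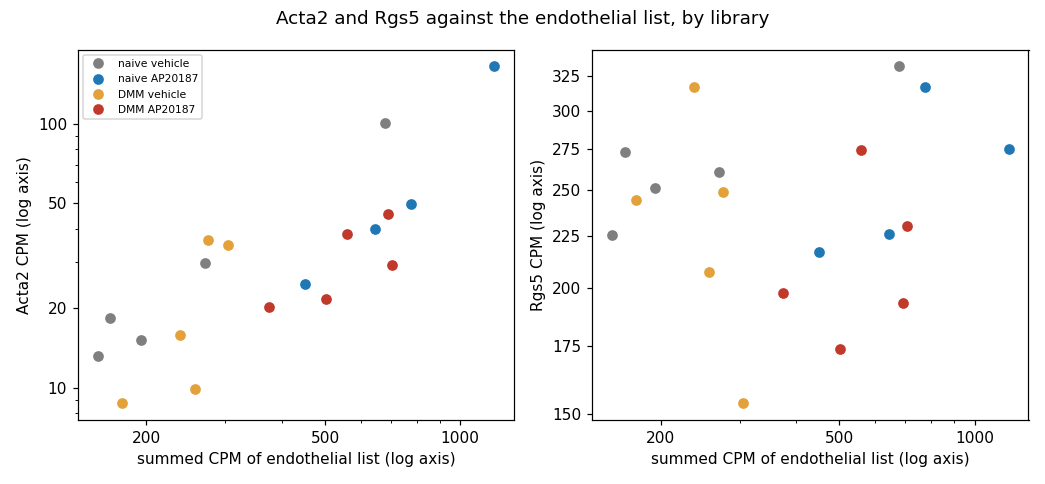
Acta2 (left) and Rgs5 (right) in CPM against the summed CPM of the endothelial list, 1 point per library, colours by group, all axes log. Acta2 is highest, at 165 and 100.5 CPM, in the naive AP20187 and naive vehicle libraries at 1191 and 679 CPM of the endothelial list, while 3 other libraries at 692, 706 and 776 CPM have Acta2 at 45.4, 29.1 and 49.6 CPM, and Rgs5 stays between 154 and 332 CPM over the whole range.

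The members differed in how far mice of 1 group lay apart. The SD of log2 CPM within groups was 0.984 for Acta2, 0.888 for Myh11, 0.903 for Tagln, 1.12 for Cnn1 and 1.31 for Des, where the median of all tested genes was 0.571. It was 0.284 for Rgs5, 0.219 for Pdgfrb, 0.320 for Tpm1 and 0.533 for Cspg4, all below that median. Over the study the highest library exceeded the lowest 18.9-fold for Acta2, 27.3-fold for Cnn1 and 65.5-fold for Des, but 2.16-fold for Rgs5 and 1.91-fold for Pdgfrb.

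The patterns of Myh11 and Rgs5 were set against those of all other genes with a mean of at least 1 CPM, as a description over 19 libraries that share their groups. The genes whose log2 CPM followed Myh11 most closely were Acta2 (Pearson r = 0.898), Ptprb, a phosphatase of endothelium (0.877), Aoc3, an amine oxidase of smooth muscle and fat (0.863), Lmod1, a leiomodin of smooth muscle (0.853), and Eln, elastin of the arterial wall (0.841). Those closest to Rgs5 were Lrriq3 (0.821), Cpne8 (0.790), Rassf9 (0.774), Sorbs2 (0.728) and Ccdc9b (0.722). No other member was among the 5 closest to Rgs5. Its r was 0.133 with Pdgfrb and -0.018 with Cspg4, so these pericyte genes did not move as 1 block.

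Of 18 further contractile and actin-linked genes, 4 rose and 2 fell with AP20187 in DMM mice, with a median difference of 0.41 log2, where 11.3% of all genes rose and 12.4% fell. The 4 were Flna, Actn1 and Vcl, which tie actin to membranes and to other filaments, and Ppp1r12a, a subunit of myosin phosphatase. Flna was at 1547, 1057, 1222, 926 and 1817 CPM with AP20187 and 116, 159, 289.6, 266 and 476 CPM with vehicle, with no overlap. Its difference was 2.33 log2 (SE 0.39, adjusted p = 0.000787), and those of Actn1, Vcl and Ppp1r12a were 1.47, 1.04 and 0.89. The 2 that fell were Synm and Kcnmb1. The 4 were named by a rule on their p-values and these 2 outside that rule, so all were named from their values.

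In naive mice 4 of the 18 rose and none fell, with a median of 0.84, where 8.61% of all genes rose. Flna was higher by 1.70 log2 (adjusted p = 0.0112) and Actn1 by 0.94 (adjusted p = 0.0150, and 0.0710 without AP20187 mouse 3). Tpm2, the beta tropomyosin of muscle, was at 193, 170.1, 99.7 and 132 CPM with AP20187 and 17.7, 15.8, 37.5, 34.4 and 7.83 CPM with vehicle. Its groups did not overlap, as for Tpm1, and it was higher by 2.72 log2 (SE 0.59, adjusted p = 0.00737). Synpo2, a Z-disc protein, was higher by 1.37 (SE 0.31, adjusted p = 0.0102). Between the AP20187 groups 1 of the 18 passed, where 0.702% of all genes did and 0.439% were lower. This was also Tpm2, lower in DMM at -2.96 (SE 0.59, adjusted p = 0.0282), and it passed in 4 of 9 fits that left out 1 mouse. Between the vehicle groups none of the 18 passed by edgeR. Tpm2 and Synpo2 are also made in skeletal muscle, whose list was at 1762 to 2715 CPM in naive AP20187 mice and 17.4 to 453 CPM in naive vehicle mice. Tpm2 was at 82.9 CPM in DMM vehicle mouse 32, the other library rich in muscle RNA, and the part of muscle RNA in these values was not tested.

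Flna, Actn1, Vcl and Ppp1r12a are made by most cells, blood cells included. A list of 8 granulocyte precursor genes summed to 13253 to 22815 CPM in DMM AP20187 mice and 281 to 5556 CPM in DMM vehicle mice. In naive mice it was at 6576 to 19549 CPM with AP20187 and 611 to 1728 CPM with vehicle. These sums did not overlap in either comparison, and their part in the rise of actin-linked genes was not tested.

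Of 18 further pericyte genes, 1 rose and 1 fell in DMM mice, 1 rose in naive mice and none passed between surgeries. Over all genes, 11.3% rose and 12.4% fell in DMM mice and 8.61% rose in naive mice, so counts this small are no result about the list. Notch3, the Notch receptor of mural cells, was at 13.7, 11.9, 8.93, 7.01 and 9.56 CPM with AP20187 and 5.06, 6.18, 6.73, 4.84 and 4.55 CPM with vehicle in DMM mice. It was higher in all AP20187 libraries, by 0.90 log2 (SE 0.31, adjusted p = 0.0435), and passed in only 1 of 10 fits that left out 1 mouse. Mcam, an adhesion molecule of pericytes and other cells, fell by 0.96 (SE 0.33, adjusted p = 0.0438) and passed in 4 of 10. In these mice the neuronal list was at 1638 to 6731 CPM with AP20187 and 4937 to 13702 CPM with vehicle. The part of neuronal RNA in the Mcam value was not tested. Anpep, an aminopeptidase, was higher in naive mice by 1.50 (SE 0.44, adjusted p = 0.0366) and passed in 4 of 9. The median difference of the list was 0.44 log2 in DMM mice and 0.38 in naive mice. Its summed level was 225 to 290.1 CPM with AP20187 and 299 to 339 CPM with vehicle in DMM mice, a sum in which Mcam alone took a mean of 69.1 and 134.8 CPM. In naive mice the sum was 293 to 366 CPM with AP20187 and 296 to 338 CPM with vehicle.

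Of 24 signals and regulators of mural cells, 7 rose and 3 fell with AP20187 in DMM mice, and 5 rose in naive mice. Over all genes, 11.3% rose and 12.4% fell in DMM mice, and 8.61% rose in naive mice. Srf, the serum response factor, was at 39.6, 25.8, 24.9, 24.3 and 41.9 CPM with AP20187 and 14.1, 12.8, 12.6, 13.8 and 16.8 CPM with vehicle in DMM mice. The groups did not overlap, and Srf was higher by 1.16 log2 (SE 0.20, adjusted p = 0.00110). In naive mice it did not pass (0.59, SE 0.21, adjusted p = 0.0771). Its co-activator Mrtfa was higher by 1.34 (SE 0.22, adjusted p = 0.000753) in DMM mice and by 0.95 (SE 0.23, adjusted p = 0.0148) in naive mice, where it passed in 7 of 9 fits that left out 1 mouse. Srf and Mrtfa are active in most cells, and their part in the values of the contractile genes was not tested.

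Ligands and receptors moved both ways. Pdgfa, a ligand of the platelet-derived growth factor family, was at 10.2 to 15.6 CPM with AP20187 and 16.7 to 24.5 CPM with vehicle in DMM mice, lower by 0.75 log2, at -0.75 (SE 0.16, adjusted p = 0.00368). Agtr1a, the angiotensin receptor of vessels, fell by 1.30 (SE 0.23, adjusted p = 0.00124), with 5.38 to 9.03 CPM against 10.4 to 23.6 CPM. Edn1, the constrictor peptide endothelin of endothelium, was at 3.98 to 11.4 CPM with AP20187 and 0.597 to 1.91 CPM with vehicle. The groups did not overlap, and Edn1 was higher by 2.23 log2 (SE 0.58, adjusted p = 0.0115) in DMM mice. In naive mice it was higher by 2.15 (SE 0.60, adjusted p = 0.0268), with vehicle mouse 4 at 5.68 CPM inside the AP20187 range, and passed in 4 of 9 fits that left out 1 mouse. Rbpj, the DNA-binding partner of Notch, was higher by 0.88 (adjusted p = 0.00139) in DMM mice and by 0.70 (adjusted p = 0.0127) in naive mice, where it passed in 8 of 9 fits that left out 1 mouse. Without naive AP20187 mouse 3 it was at 0.54 (adjusted p = 0.0581). Against DMM vehicle mice 63 and 64 alone, Srf (adjusted p = 0.0540), Agtr1a (0.0603), Rbpj (0.0580) and Edn1 (0.205) did not pass. Pdgfb, the endothelial ligand of Pdgfrb, was at 0.25 (SE 0.33, adjusted p = 0.638) and 0.23 (SE 0.35, adjusted p = 0.687).

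Other cell types were read as lists, against 11.3% of all genes that rose and 12.4% that fell in DMM mice, and 8.61% that rose and 2.57% that fell in naive mice. Of 10 fibroblast genes 2 rose in DMM mice, Fbln1 and Pi16, and none passed in naive mice. Of 9 macrophage genes 1 rose in DMM mice, Mrc1, and 3 rose in naive mice, Cd68, Aif1 and C1qb, and none fell. The macrophage list summed to 215 to 889 CPM with AP20187 and 151 to 565 CPM with vehicle in DMM mice. Of 7 platelet genes 2 rose in DMM mice, Itga2b and Gp1ba, with summed levels of 97.7 to 311 CPM with AP20187 and 13.5 to 187 CPM with vehicle. Of 5 tested cardiac muscle genes, Myh6 rose and Myl4 fell in DMM mice, and the list summed to 3.29 to 8.93 CPM over all libraries. Actc1, cardiac actin that is also made in skeletal muscle, rose in naive mice by 4.41 log2 (SE 1.15, adjusted p = 0.0208), with 7.01 to 17.6 CPM against 0.466 to 0.774 CPM. Of 6 lung and skin epithelial genes 5 rose in DMM mice, and in naive mice 1 rose and 1 fell, with sums of 0.209 to 16.6 CPM. Of 7 myelinating Schwann cell genes 3 fell in DMM mice and none passed in naive mice. Of 7 satellite glia genes 2 fell in DMM mice and 1 in naive mice. Of 7 spinal cord glia genes none passed in DMM mice and 3 fell in naive mice.

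Some of these counts may be shared with other genes. Acta2 resembles Acta1, Actc1 and Actg2, and Tpm1 resembles Tpm2, so reads may be split between them. On build GRCm39, Tpm1 (chromosome 9, 66929872 to 66956549, minus strand), Des (chromosome 1, 75336973 to 75345223, plus strand) and Tagln (chromosome 9, 45840917 to 45847356, minus strand) overlap genes on the other strand. The kit keeps strand, and whether counting used it is not given in the sources used here. Acta2 (chromosome 19, 34218490 to 34232990), Myh11 (chromosome 16, 14012399 to 14109236), Cnn1 (chromosome 9, 22010512 to 22020926), Rgs5 (chromosome 1, 169483070 to 169523382), Cspg4 (chromosome 9, 56772317 to 56807154) and Pdgfrb (chromosome 18, 61178222 to 61218133) overlap no other listed gene.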

How the data were processed

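Bulk RNA-seq of 19 pooled L3 to L5 ganglia was used. Poly(A) libraries were made with a strand-keeping kit, per the labels' protocols. The authors trimmed, aligned and assembled reads with cutadapt, HISAT2 and StringTie against GRCm39, per the submitters' processing notes; versions are not given in the sources used here. The deposited table holds raw read counts per gene for each mouse, and beside them the authors' FPKM values. A second deposited count matrix was not used. How reads were counted is not given in the sources used here.

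From the counts, genes passing filterByExpr (minimum count 10) were fitted in edgeR 4.0.16 (R 4.3.3) with TMM scaling and a quasi-likelihood model of 4 groups on 19 libraries (15 residual degrees of freedom). The 5 contrasts were adjusted by Benjamini-Hochberg over 22778 genes at 0.05. Intervals of 95% use those degrees of freedom. CPM use TMM-scaled totals. The fitting code was run on simulated counts as a check of the code, and no result here rests on that run. The labels number the samples and do not say that each is a separate animal, so p-values measure the spread between these samples.

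Members and lists were chosen with earlier results of these data known. Named list genes are the 3 with the smallest p in each mural list and any passing where a member passed, up to 6 per list; likeness used log2 CPM with a prior count of 2. Alternatives were RLE or library-size scaling, no filter, DESeq2 1.42.0, limma 3.58.1 on log2(FPKM + 1) and log2(FPKM + 0.1), the compared groups alone, vehicle mice by number range, each library left out, and a replicate block. Promoter sequences are RefSeq's on GRCm38.p6. Gene positions are those of the deposited table.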

Additional observations from a re-analysis of the deposited data

Results flagged for a closer look

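Of 36 sets of values checked (9 genes in 4 groups), 6 had a highest or lowest library set apart from the rest by Dixon's test. Chance alone sets apart about 1 in 20 independent, normally spread sets. Members such as Acta2 and Myh11 move together (Pearson r = 0.898), so the 6 cannot be set against that rate. Naive vehicle mouse 4 was high for Acta2 (100.5 CPM) and Myh11 (88.1 CPM). Naive AP20187 mouse 3 was high for Tagln (156 CPM). DMM vehicle mouse 63 was high for Myh11 (17.3 CPM), and DMM vehicle mouse 32 for Des (60.2 CPM). Naive AP20187 mouse 4 was low for Tpm1 (535 CPM), with the other libraries of that group between 652 and 663 CPM. The effect of AP20187 on Tpm1 differed between DMM and naive mice by the test of that difference, at -2.14 log2. The naive AP20187 libraries and DMM vehicle mouse 32 were rich in skeletal muscle RNA, and its part in this difference was not tested.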

How the results depend on the processing

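Tpm1 kept its direction and passed under every alternative run, in each comparison where it passed at first: its difference with AP20187 lay between -1.10 and -0.65 log2 in DMM mice and between 0.97 and 1.24 in naive mice. The number of members passing in naive mice ran from 1 to 3 over the fits leaving out 1 mouse. The 1 was without naive AP20187 mouse 1 and the 3, with Acta2, without naive vehicle mouse 4. Between the AP20187 groups it was 2, with Des, under DESeq2, limma on log2(FPKM + 1) and the compared groups alone. For the difference of effects it was 2 under DESeq2, again with Des. In each other comparison leaving out 1 mouse left it as it was.

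Members that did not pass turned direction as follows. In DMM mice, against vehicle mice 63 and 64 alone, the log2 differences were -0.17 for Acta2, -0.22 for Tagln, 0.20 for Des and 0.13 for Rgs5. Against vehicle mice 32 to 34 alone they were 0.97 for Cnn1 and 0.13 for Cspg4. With limma on log2(FPKM + 0.1) they were 0.057 for Cnn1 and 0.39 for Des, and on log2(FPKM + 1) 0.070 for Des. Leaving out 1 mouse gave -0.45 to 0.30 for Cnn1, -1.02 to 0.93 for Des and -0.25 to 0.014 for Rgs5. In naive mice Myh11 was -0.079 with library size alone and -0.65 to 1.17 over mice left out, and Rgs5 was -0.17 to 0.033. Between the vehicle groups Des was -0.40 to 1.79 and Tpm1 -0.11 to 0.34. The cause was not tested.

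Replicate numbers are shared between the naive groups. Same-numbered mice 1, 3, 4 and 5 deviated together with correlations of 0.0078, 0.254, -0.053 and 0.223, and only mice 3 and 5 correlated best with their own number, so the numbers were not taken as pairs. With a replicate block Des was at 3.77 log2 (adjusted p = 0.0151) and Tpm1 at 1.18 (adjusted p = 0.0122), the number of members passing stayed at 2, and Actn1, Anpep and Edn1 no longer passed.

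Over all genes the number passing ran from 1156 to 8450 around 5410 in DMM mice, from 994 to 4356 around 2548 in naive mice, from 0 to 541 between the vehicle groups, from 43 to 1109 around 160 between the AP20187 groups and from 12 to 224 around 26 for the difference of effects. With 4 or 5 mice per group and this spread, differences of Acta2, Myh11, Tagln, Cnn1 and Des with AP20187 had 95% intervals over 2 log2 units wide.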
